A study of Mus musculus with 10 samples.

Results

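Interferon-gamma inducible GTPases were examined in macrophages of the mouse small intestine after experimental stroke. The members were 10 genes chosen by symbol, namely Gbp2, Gbp3, Gbp4, Gbp5, Gbp7, Gbp8, Gbp9, Igtp, Irgm1 and Irgm2. All 10 were among the 17279 genes listed in the count table, and all 10 passed the filter on low counts.

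Guanylate-binding proteins (the Gbp genes) and immunity-related GTPases (Igtp, Irgm1 and Irgm2) are GTP-hydrolysing proteins that macrophages make after interferon-gamma binds its receptor. The receptor acts through JAK kinases, and the promoters of its target genes often carry GAS elements and ISRE elements, the latter bound by IRF1. The proteins gather on vacuoles that hold bacteria or parasites, help to break these vacuoles open, and feed into the inflammasomes that sense the released microbes. The gut lamina propria lies next to the microbiota and holds lymphocytes that can secrete interferon-gamma.

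The libraries came from C57BL6/J mice that underwent sham surgery or permanent middle cerebral artery occlusion (pMCAO), a stroke model in which a brain artery is closed without reperfusion. At 24 h after surgery the mucosa of the whole small intestine was peeled, and macrophages carrying a GFP reporter for CX3CR1 were sorted from its lamina propria by flow cytometry. There were 5 sham and 5 pMCAO libraries, each made from 2.0 ng of total RNA after ribosomal RNA had been removed. The genotype label names the strain without the reporter. The libraries are labelled as biological replicates, replicate 1 of each group carries the word pool in its name, and sex, age and the animals behind each library are not described in the labels. Where libraries do not stand for separate animals, the p-values below measure only the spread between these libraries.

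Total counts ranged from 18894151 to 60665972 in the sham libraries and from 6430643 to 28672285 in the pMCAO libraries, and the shallowest was pMCAO 1. Raw counts of the members ranged from 171 to 13483 per library, so none was near the limit of detection. Levels are given below as CPM, counts scaled to library size with TMM factors. The 12 macrophage markers, among them Cx3cr1, Csf1r, Adgre1 (F4/80), Mertk and C1qa, were above 0 in every library and summed to between 8778 and 19638 CPM in the sham group and between 9863 and 19928 CPM in the pMCAO group. Markers of other cells were also present. The sum of 8 B and plasma cell markers (829 to 27377 CPM over all libraries) exceeded the macrophage sum in Sham 2 and pMCAO 2 only. The sum of 10 mast cell markers (475 to 20854 CPM) exceeded it in Sham 5 only. Sham 5 and pMCAO 4 held Xist at 2237 and 4686 CPM before TMM scaling, against 1.27 to 4.88 CPM in the other 8 libraries. Xist is the RNA that coats the inactive X chromosome of female cells. In such bulk libraries, fewer cells of a type and less RNA per cell cannot be told apart.

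The members lie on 3 chromosomes of the genome (GRCm38, GENCODE M21). Gbp5 (chr3:142493978-142522344), Gbp7 (chr3:142530342-142550149), Gbp3 (chr3:142560026-142573209) and Gbp2 (chr3:142620602-142638008) lie on the plus strand of chromosome 3. Gbp8 (chr5:105014150-105139540), Gbp9 (chr5:105077630-105139539) and Gbp4 (chr5:105115767-105139586) lie on the minus strand of chromosome 5, with gene models whose 5′ ends lie close together and share 60 or 61 bases of exon. On chromosome 11, Igtp (chr11:58199556-58207591) and Irgm2 (chr11:58199618-58222782) lie on the plus strand and share 162 bases of exon, while Irgm1 (chr11:48861968-48871683) lies apart on the minus strand. Little sequence was shared between the members. The share of stretches of 100 bases, the read length, that another gene also holds was 0% in Gbp2 and Irgm1, 5.16% in Igtp, 4.39% in Gbp8 and 10.01% in Gbp7, nearly all of it with the overlapping gene model Gm43802, and between 0.142% and 3.005% in the other 5 members.

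RefSeq promoter windows of 300 bases (250 before and 50 after the start, GRCm38.p6) were found for 7 of the 10 members, in 8 windows since Gbp3 has 2 starts. The windows were searched on both strands for an ISRE-type motif, GAAANNGAAA, and for a GAS-type motif, TTCNNNGAA, which reads the same on both strands. The ISRE-type motif was present in 7 of the 8 member windows, covering all 7 genes, and in 1126 of all 32817 promoter windows (3.431%). The GAS-type motif was present in 4 member windows, those of Gbp5, Gbp7, Igtp and Irgm2, against 2722 of all windows (8.294%), and both motifs together were in the same 4 windows against 148 of all windows (0.451%). Among 5 windows of other interferon-inducible GTPases, 4 held the ISRE-type motif, 3 the GAS-type and 3 both, and among 14 windows of other interferon-gamma targets, 2 held the ISRE-type motif, 4 the GAS-type and 0 both. No match of one motif overlapped a match of the other.

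The sequences below are shown because they show the ISRE-type motif alone, in Gbp3, and together with the GAS-type motif within this stretch, in Gbp7, Igtp and Irgm2. Each runs 5′ to 3′ from 120 to 21 bases before the RefSeq start on the plus strand (Gbp3 chr3:142559924-142560023, Gbp7 chr3:142530216-142530315, Igtp chr11:58199436-58199535, Irgm2 chr11:58214857-58214956), and capitals mark the motif matches.
Gbp3: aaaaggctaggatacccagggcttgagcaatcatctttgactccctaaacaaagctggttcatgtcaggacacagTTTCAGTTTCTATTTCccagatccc
Gbp7: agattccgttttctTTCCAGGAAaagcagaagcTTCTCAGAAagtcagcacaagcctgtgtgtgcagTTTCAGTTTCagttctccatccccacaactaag
Igtp: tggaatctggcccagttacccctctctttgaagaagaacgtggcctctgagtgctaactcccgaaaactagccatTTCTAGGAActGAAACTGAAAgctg
Irgm2: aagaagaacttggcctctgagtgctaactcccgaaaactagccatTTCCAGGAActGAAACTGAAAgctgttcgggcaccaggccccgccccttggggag

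In Gbp3, 2 ISRE-type matches overlap to form 1 run of capitals. Gbp7 holds 2 GAS-type matches, starting 106 and 87 bases before the start, and 1 ISRE-type match at 53 bases. In Igtp and Irgm2 a GAS-type and an ISRE-type match stand only a pair of bases apart, and 247 of 264 aligned bases of their windows are identical (93.6%). Gbp2 and Irgm1 carry the ISRE-type motif without the GAS-type, at 59 bases before the start in Gbp2 and at 30 and 24 bases in Irgm1, and in Gbp5 the motifs lie farther apart, at 165 bases for the ISRE-type and at 245 and 52 bases for the GAS-type. By the GENCODE M21 models, exon covered 41 of the 100 bases from 120 to 21 before the RefSeq start in Gbp2, and all 100 in Irgm1. The Gbp2 match and the Irgm1 match at 30 bases thus lie in exon of those models. The windows of Gbp5 (chr3:142496684-142496983) and Irgm1 (chr11:48871371-48871670) lie inside their gene models. These letter matches describe the windows and are not measured binding sites.

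**Figure D1:**
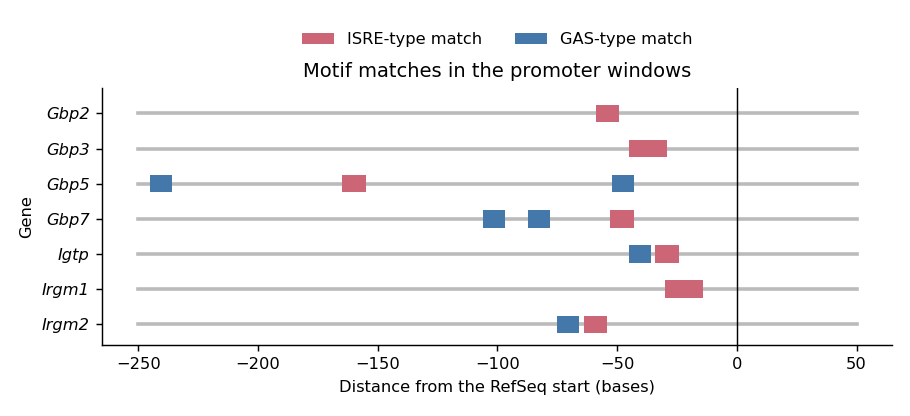
Positions of ISRE-type (red) and GAS-type (blue) motif matches in the RefSeq promoter windows of 7 members, as distance in bases from the start (vertical line at 0). Every gene has a red block, and Gbp5, Gbp7, Igtp and Irgm2 also have blue blocks.

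Per kilobase of exon, the members differed from each other by about an order of magnitude within the same libraries. Gbp8 (51.8 CPM per kb, mean of the 10 libraries), Gbp3 (44.5) and Gbp7 (44.1) had the highest levels, and Gbp9 (21.7), Gbp4 (19.3), Igtp (18.4), Gbp2 (15.6), Irgm2 (13.5), Irgm1 (9.16) and Gbp5 (4.36) followed. Gbp7 was above Gbp9, Irgm2 above Irgm1, and Irgm1 above Gbp5 in 10 of 10 libraries, so these steps in the order were larger than the spread. The other neighbours changed places between libraries, and Gbp8 exceeded Gbp3 in 7 of 10, Gbp3 exceeded Gbp7 in 3, Gbp9 exceeded Gbp4 in 6, Gbp4 exceeded Igtp in 4, Igtp exceeded Gbp2 in 8 and Gbp2 exceeded Irgm2 in 6. The related gene Gbp2b (Gbp1), which is no member, stood above all of them at 167 CPM per kb.

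Comparison of pMCAO with sham libraries asks whether stroke altered the levels of these genes in gut macrophages at 24 h. No member passed the test in either direction: 0 of 10 had an adjusted p (FDR) of at most 0.05 in edgeR's quasi-likelihood test, and over all 16949 genes tested the same rule called 0 genes (0%). At an unadjusted p under 0.05, 799 genes (4.71%) and 0 members passed. The log2 fold changes of the members (pMCAO minus sham) ran from -0.52 for Gbp3 to 0.21 for Gbp5, with 6 below and 4 above 0 and a median of -0.03, beside a median of -0.01 over all genes tested. In no member did all pMCAO libraries lie below all sham libraries, or above them, which was the case for 91 (0.537%) and 76 (0.448%) of all genes tested.

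**Figure D2:**
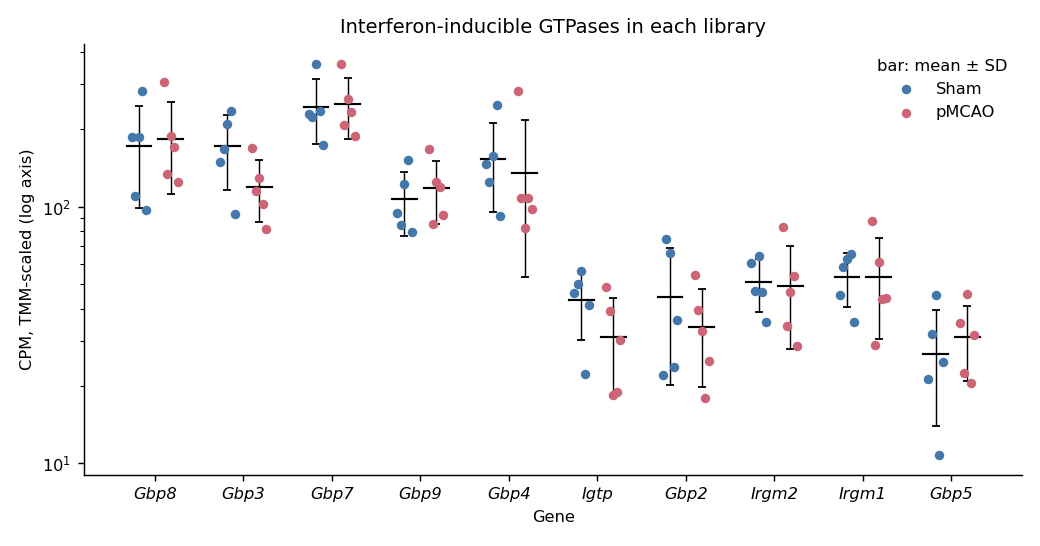
TMM-scaled CPM (log axis) of each member in the 5 sham (blue) and 5 pMCAO (red) libraries, ordered by level per kilobase, with the group mean ± SD as bars. The points of both groups overlap for every member, and the highest pMCAO point is pMCAO 1 for 9 of the 10.

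Among the guanylate-binding proteins of chromosome 3, Gbp3 had the lowest fold change. Its level was 149.7, 168, 209.7, 236 and 93.4 CPM in Sham 1 to 5, and 169, 115, 129, 102 and 81.7 CPM in pMCAO 1 to 5. All 5 pMCAO libraries lay below the sham mean of 171 ± 55.3 CPM (SD, n = 5), but only pMCAO 5 lay below the lowest sham library, Sham 5. The pMCAO mean was 119 ± 32.6 CPM (SD, n = 5), and the log2 fold change was -0.52 ± 0.26 (SE), with a 95% interval from -1.08 to 0.03 (edgeR unadjusted p = 0.0632, adjusted p = 0.922).

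Gbp2 encodes a prenylated member that is recruited to the vacuole of Toxoplasma gondii. Its level was 22.2, 74.8, 65.9, 23.8 and 36.2 CPM in Sham 1 to 5 and 54.2, 39.6, 32.6, 17.97 and 25 CPM in pMCAO 1 to 5. Sham 2 and Sham 3 were the highest of all libraries, and only pMCAO 4 lay below the lowest sham library, Sham 1. The group means were 44.6 ± 24.3 and 33.9 ± 13.97 CPM (SD, n = 5 each), and the log2 fold change of -0.40 had a 95% interval from -1.24 to 0.44 (edgeR adjusted p = 0.925).

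Gbp5, which has been tied to inflammasome assembly, had the lowest level per kilobase of the members and the highest fold change. It stood at 21.3, 31.8, 45.3, 10.8 and 24.7 CPM in Sham 1 to 5 and at 35.2, 22.5, 45.5, 20.5 and 31.6 CPM in pMCAO 1 to 5. The highest sham and pMCAO libraries (Sham 3 and pMCAO 3) were nearly equal, and Sham 4 was the lowest of all. The log2 fold change was 0.21 ± 0.34 (SE), with a 95% interval from -0.54 to 0.96 (edgeR adjusted p = 0.954), and without Sham 4 it was 0.0017.

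Gbp7, linked to assembly of the phagocyte oxidase, had the highest CPM of the members. It measured 229, 224, 361, 235 and 174 CPM in Sham 1 to 5 and 359.7, 208, 263, 234 and 188 CPM in pMCAO 1 to 5. Each group held 1 library near 360 CPM, Sham 3 and pMCAO 1, and the others of both groups lay between 174 and 263 CPM. The means of 245 ± 69.2 and 250.4 ± 67.2 CPM (SD, n = 5 each) gave a log2 fold change of 0.03 with a 95% interval from -0.46 to 0.52 (edgeR adjusted p = 0.992), the narrowest interval of the 10.

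The 3 members of chromosome 5, whose individual roles are less well described, shared a pattern with high values in Sham 4 and pMCAO 1. Gbp4 measured 146, 125, 157, 249 and 91.7 CPM in Sham 1 to 5 and 282, 108, 82.3, 108 and 97.5 CPM in pMCAO 1 to 5. Apart from pMCAO 1, every pMCAO library of Gbp4 lay below 4 of the 5 sham libraries. Its log2 fold change was -0.18 with a 95% interval from -0.95 to 0.59 (edgeR adjusted p = 0.964). Without pMCAO 1 the same value was -0.64 (edgeR unadjusted p = 0.0329, adjusted p = 0.999).

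Gbp8 measured 187, 110.0, 186, 281 and 97.1 CPM in Sham 1 to 5 and 305, 134, 188, 170.5 and 124 CPM in pMCAO 1 to 5. Sham 2 and Sham 5 were the lowest of all libraries and pMCAO 1 the highest, and the log2 fold change was 0.09 with a 95% interval from -0.59 to 0.78 (edgeR adjusted p = 0.979). Gbp9 measured 94.8, 84.9, 123, 151 and 79.4 CPM in Sham 1 to 5 and 167, 85.4, 125, 119 and 93.1 CPM in pMCAO 1 to 5. Its libraries kept nearly the same order as those of Gbp8, and its log2 fold change was 0.14 with a 95% interval from -0.35 to 0.64 (edgeR adjusted p = 0.953).

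The 3 immunity-related GTPases of the members are of the regulatory kind, which sit on host membranes and hold the effector GTPases inactive there. Igtp (Irgm3) had the lowest fold change of the 3, with 46.2, 49.9, 56.2, 22.2 and 41.5 CPM in Sham 1 to 5 and 48.5, 39.4, 18.4, 19.0 and 30.2 CPM in pMCAO 1 to 5. Sham libraries other than Sham 4 lay above all pMCAO libraries other than pMCAO 1. The means were 43.2 ± 12.9 and 31.1 ± 13.03 CPM (SD, n = 5 each), and the log2 fold change was -0.48 ± 0.31 (SE), with a 95% interval from -1.15 to 0.20 (edgeR unadjusted p = 0.152, adjusted p = 0.922).

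Irgm1, which mice need to control mycobacteria, measured 45.3, 58.1, 62.7, 65.3 and 35.6 CPM in Sham 1 to 5 and 87.9, 29.0, 60.6, 43.5 and 44.1 CPM in pMCAO 1 to 5. The highest and the lowest library were both pMCAO, and the means of 53.4 ± 12.6 and 53.0 ± 22.5 CPM (SD, n = 5 each) were nearly equal. Irgm2, which restrains inflammasome activation by bacterial lipopolysaccharide, measured 60.1, 46.9, 64.3, 46.4 and 35.4 CPM in Sham 1 to 5 and 83.0, 34.1, 46.4, 53.7 and 28.6 CPM in pMCAO 1 to 5. Here too the pMCAO group held both extremes. The log2 fold changes were -0.01 for Irgm1 (95% interval from -0.62 to 0.60) and -0.05 for Irgm2 (95% interval from -0.65 to 0.56), with edgeR adjusted p of 0.999 and 0.990.

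**Figure D3:**
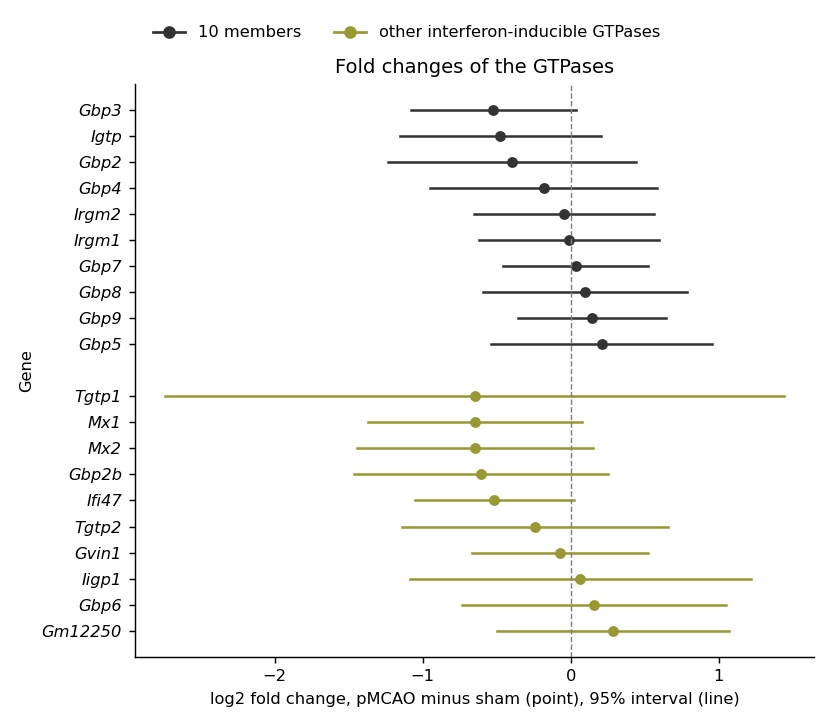
Log2 fold changes (pMCAO minus sham, points) with 95% intervals (lines) for the 10 members (black) and 10 other interferon-inducible GTPases (olive). Every interval of a member includes 0, from Gbp3 at -0.52 to Gbp5 at 0.21.

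These intervals set what the libraries could show. The interval of Gbp7 leaves room for a pMCAO level between 0.729 and 1.44 times the sham level, and that of Gbp2 for one between 0.424 and 1.36 times. The coefficient of variation within a group was between 23.0% and 60.9%, highest for Gbp4 in the pMCAO group and lowest for Irgm2 in the sham group.

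Single libraries moved many members together. pMCAO 1, a library named as a pool and the shallowest, was the highest pMCAO library for 9 of the 10 members, the exception being Gbp5. Sham 5, the deepest library and 1 of the 2 with Xist, was the lowest sham library for 7 of the 10. The summed level of the 10 members was 1591 CPM in pMCAO 1 against 744 to 991 CPM in the other pMCAO libraries. In Sham 5 it was 709 CPM, against 973 to 1331 CPM in the other sham libraries. Sham 5 also had the lowest macrophage marker sum of all libraries (8778 CPM, against 14613 to 19638 CPM in the other sham libraries). Its sums of lymphoid (1134 CPM) and mast cell markers (20854 CPM) were the highest. The macrophage sum of pMCAO 1 was 12473 CPM, within the range of the other pMCAO libraries. Without pMCAO 1, 9 of 10 members had a log2 fold change below 0, with a median of -0.29. In that fit 3 members (Gbp3, Gbp4 and Igtp) had an unadjusted p under 0.05 in edgeR, as did 627 of all 17151 genes tested. None of the 3 passed the adjusted test, with an adjusted p of 0.999 in each. Without both pools, which leaves out pMCAO 1 as well, the count below 0 was also 9. It was 8 without both libraries with Xist and 8 without Sham 5 alone. In contrast, it was 4 when Sham 3, Sham 4, pMCAO 2 or pMCAO 5 was left out alone, against 6 with all libraries. The part of pooling, depth, sex and cell make-up in these values was not tested.

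The relative make-up of the family overlapped between the groups. Of the summed CPM per kilobase of the members, Gbp3 took 16.9% to 23.8% in the sham libraries and 14.2% to 18.03% in the pMCAO libraries. Gbp8 took 13.4% to 26.9% and 19.9% to 24.6%, and Gbp5 0.532% to 2.19% and 1.46% to 3.01%. Ratios between members, which cancel any shift shared by the family, overlapped between the groups for all 45 pairs. The largest differences of the mean log2 ratio (pMCAO minus sham) were 0.82 for Gbp5 to Igtp and -0.80 for Gbp3 to Gbp5. Next came 0.66 for Gbp9 to Igtp. The log2 ratio of Gbp3 to its neighbour Gbp7 was 0.24 ± 0.36 in the sham and -0.29 ± 0.14 in the pMCAO group (SD, n = 5 each), a difference of -0.53, and that of Gbp3 to Gbp8 differed by -0.62.

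Across the 10 libraries, 7 of the members rose and fell together, and the other 3 followed them less closely. Pearson's r between log2 CPM values was above 0 for 37 of the 45 pairs, with a median of 0.58, and ranged from -0.31 for Gbp4 with Gbp5 to 0.94 for Gbp8 with Gbp9 (Spearman's rho -0.18 and 0.95). Gbp3, Gbp4, Gbp7, Gbp8, Gbp9, Irgm1 and Irgm2 had r between 0.58 and 0.94 in all their 21 pairs, and between 0.63 and 0.94 with the group means removed. Gbp2, Gbp5 and Igtp had r between 0.31 and 0.70 among themselves, highest for Gbp2 with Igtp, and r between -0.31 and 0.45 with the first 7. These ranges overlap: Gbp5 with Igtp, at 0.31, lay below Gbp2 with Gbp7 (0.45) and Gbp5 with Gbp7 (0.43). The 3 are thus not a set apart. Since the values themselves led to this grouping and the points share libraries and depths, the correlations are a description without a p. Without pMCAO 1 the first 7 had r between 0.37 and 0.91, and without both pMCAO 1 and Sham 5 between 0.26 and 0.89, still above 0 in all 21 pairs.

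Membership of the 7 matched position in the genome only in part. Gbp4, Gbp8 and Gbp9 of chromosome 5, which share a few bases of exon, were all among the 7. In contrast, Gbp2 and Gbp5, which are not, lie in the same cluster as Gbp3 and Gbp7, which are. Igtp had r of only 0.27 with Irgm2 (rho 0.49), although these share 162 bases of exon and similar promoter windows. The Irgm2 window (chr11:58214727-58215026) lies inside its gene model and past the end of Igtp, so its RefSeq start is not the one near the shared exon. In Sham 4, Gbp2, Gbp5 and Igtp were low while Gbp3, Gbp4, Gbp8, Gbp9 and Irgm1 reached their highest sham value.

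**Figure D4:**
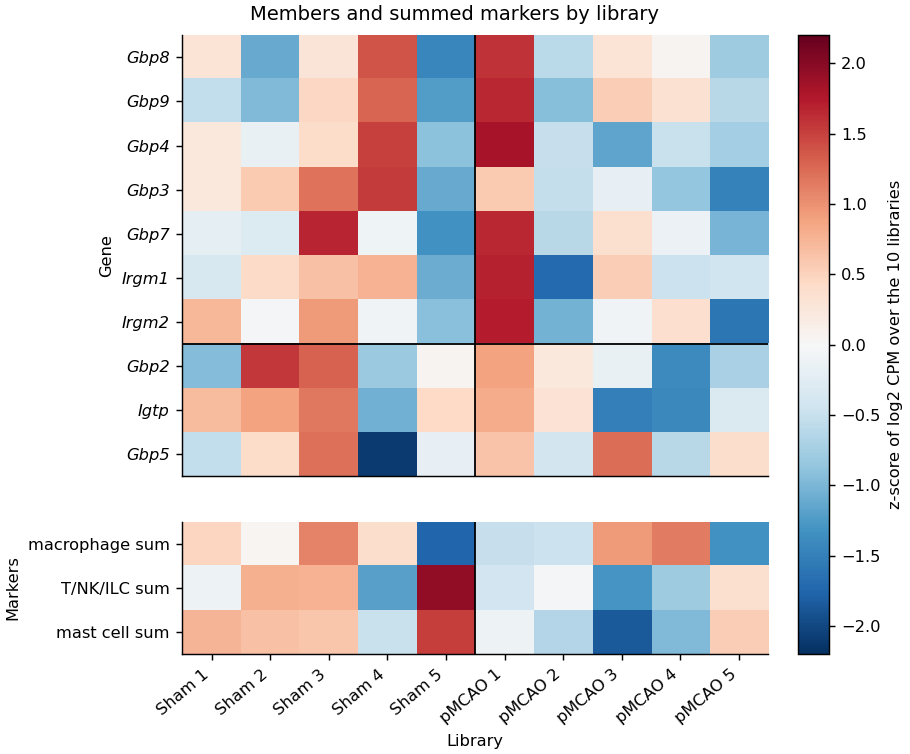
Level of each member by library as a z-score of log2 CPM over the 10 libraries (red high, blue low), with the summed macrophage markers and the summed T, NK and innate lymphoid markers and mast cell markers below. The vertical line parts sham from pMCAO and the upper horizontal line parts the 7 members that vary together from Gbp2, Igtp and Gbp5; the pMCAO 1 column is red for all 10 members, and Sham 4 is blue for Gbp2, Igtp and Gbp5.

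The genes outside the members whose pattern was most like the mean of the 10 members were Sh3bp4 (r = 0.91, rho = 0.85), Art2b (r = 0.90, rho = 0.85), Cd9 (r = 0.89, rho = 0.82), Alas1 (r = 0.86, rho = 0.81) and Apol10b (r = 0.84, rho = 0.81), over 10 libraries. Gbp2b ranked at position 7 with r = 0.83 and Iigp1 at position 10 with r = 0.82. No p is given, since the genes were ranked by this measure.

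Markers of other cells differed between the libraries, and their relations with the members did not pass the test. The 16 T, NK and innate lymphoid markers, such as Cd3e, Gzma and Nkg7, summed to 436, 658, 653, 262 and 1134 CPM in Sham 1 to 5 and to 377, 449, 249.6, 318 and 538 CPM in pMCAO 1 to 5. Of the 16, Prf1, Klrb1c and Tbx21 were at 0 in 1 or 2 libraries. All 16 had a log2 fold change below 0, with a median of -0.87 and none called. The libraries lowest in these markers, Sham 4 and pMCAO 3, were also the lowest of their groups for Igtp.

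For Igtp the correlation with this sum over 10 libraries was r = 0.69 (permutation p = 0.0285, adjusted over 20 relations 0.213) and rho = 0.68 (permutation p = 0.0354, adjusted 0.236). It was 0.61 within the groups and 0.74 without Sham 5 and pMCAO 3, the libraries farthest from the median of the sum. For Gbp8 the sign was opposite, with r = -0.72 (permutation p = 0.0184, adjusted 0.213), rho = -0.79 (permutation p = 0.00864, adjusted 0.125), r = -0.75 within the groups and r = -0.66 without the same libraries. Gbp9 had r = -0.68 (permutation p = 0.0319, adjusted 0.213), rho = -0.77 (permutation p = 0.0125, adjusted 0.125), r = -0.67 within the groups and r = -0.59 without these libraries. None of the 20 relations of the 10 members with the lymphoid and macrophage sums passed the adjusted test. Without Cd4, which gut macrophages also express, r was 0.77 for Igtp, -0.65 for Gbp8 and -0.63 for Gbp9, given without a p because Cd4 was left out after its values were seen. With the macrophage sum r ranged from -0.30 to 0.56, and the highest, that of Irgm2, was 0.08 without Sham 5 and pMCAO 5.

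Mast cell markers summed to more than the macrophage markers only in Sham 5, at 20854 against 8778 CPM. A list of 10 (Mcpt1, Mcpt2, Mcpt4, Mcpt9, Cpa3, Cma1, Kit, Fcer1a, Ms4a2 and Hdc), written after the values of Mcpt1 and Mcpt2 were seen, summed to 8694, 7745, 7541, 2188 and 20854 CPM in Sham 1 to 5 and to 3311, 1841, 475, 1268 and 6909 CPM in pMCAO 1 to 5. Only 1 of the 10 was at 0 in any library. All 10 had a log2 fold change below 0, with a median of -1.23, 3 at an unadjusted p under 0.05 and none called by edgeR. The mast cell protease Mcpt1 averaged 4387 ± 3182 CPM in the sham and 1213 ± 1119.5 CPM in the pMCAO group (SD, n = 5 each). Among the members, Igtp had the highest correlation with this sum, with r = 0.74 and rho = 0.71 over 10 libraries and r = 0.66 within the groups, as a description without a p. The part of admixed mast cells or lymphocytes in the members' levels was not tested.

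The interferon-gamma pathway above these genes did not pass the test either. Of 16 genes of the pathway (ligand, receptor, kinases, transcription factors and inhibitors), 0 were called, 11 had a fold change below and 5 above 0, and the median log2 fold change was -0.15. Ifng itself, the ligand, was weakly expressed, with 2.09, 5.56, 1.41, 1.13 and 8.56 CPM in Sham 1 to 5 and 4.25, 0.451, 3.23, 0.656 and 4.06 CPM in pMCAO 1 to 5. Its highest value was in Sham 5, the library with the most lymphoid marker RNA, and its log2 fold change of -0.59 had an edgeR adjusted p of 0.945.

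Both receptor chains were well detected. Ifngr1, the ligand-binding chain, averaged 286 ± 29.0 CPM in the sham and 327 ± 27.3 CPM in the pMCAO group (SD, n = 5 each), with a log2 fold change of 0.19 (edgeR unadjusted p = 0.176, adjusted p = 0.922), and for Ifngr2 the log2 fold change was -0.28 (edgeR adjusted p = 0.922). Irf1 averaged 88.8 ± 12.98 and 68.6 ± 17.8 CPM with a log2 fold change of -0.37 ± 0.20 (SE; edgeR unadjusted p = 0.0821, adjusted p = 0.922). The phosphatase gene Ptpn6 had a log2 fold change of -0.28 (edgeR unadjusted p = 0.0646, adjusted p = 0.922), and Socs1, the feedback inhibitor, averaged only 1.19 ± 0.53 and 1.94 ± 1.08 CPM with a log2 fold change of 0.69 (edgeR unadjusted p = 0.269, adjusted p = 0.924).

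Among 10 other interferon-inducible GTPases in the table, 7 had a fold change below and 3 above 0, with a median of -0.38, and 0 were called. Ifi47 (Irgd), an effector GTPase, averaged 86.5 ± 28.0 CPM in the sham and 60.5 ± 11.2 CPM in the pMCAO group (SD, n = 5 each), with a log2 fold change of -0.52 (edgeR unadjusted p = 0.0578, adjusted p = 0.922). Mx1, a gene that answers to type I interferon, averaged 35.7 ± 14.6 and 22.8 ± 9.79 CPM, with a log2 fold change of -0.65 (edgeR unadjusted p = 0.0748, adjusted p = 0.922). Gbp2b had a log2 fold change of -0.60 (edgeR adjusted p = 0.922), and at the upper end Gm12250 (Irgb10) had 0.29 and Gbp6 0.16 (edgeR adjusted p of 0.945 and 0.975). Tgtp1, Tgtp2, Gvin1 and Gbp6 share between 64.5% and 97.8% of their stretches of 100 bases with other genes, so that their counts are uncertain.

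Other targets of interferon-gamma gave the same count of 0 calls. Of 18 tested, 13 had a fold change below and 5 above 0, with a median of -0.18. At an unadjusted p under 0.05 in edgeR, 416 of all 16949 genes tested were lower, and so were 2 of the 18. These were Psmb10, an immunoproteasome subunit, at 124 ± 24.0 and 85.0 ± 13.3 CPM with a log2 fold change of -0.54 (edgeR unadjusted p = 0.00900, adjusted p = 0.922), and Cxcl9, a chemokine that draws T cells, at 196 ± 137 and 79.1 ± 50.1 CPM with a log2 fold change of -1.31 (edgeR unadjusted p = 0.0192, adjusted p = 0.922). Serpina3g and Wars had the smallest p among those above 0, with log2 fold changes of 0.25 and 0.18.

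Genes that act with or after these GTPases were spread around 0. Of 20 such genes of autophagy conjugation and of inflammasomes, 7 were below and 13 above 0, with a median log2 fold change of 0.02 and 0 called. Atg7, which drives a conjugation step that helps to place immunity-related GTPases on their target vacuoles, averaged 25 ± 5.00 and 33.8 ± 10.1 CPM with a log2 fold change of 0.43 (edgeR unadjusted p = 0.0720, adjusted p = 0.922). Atg12 had a log2 fold change of 0.29 and Casp1 of -0.20 (edgeR adjusted p = 0.922 each). Il1b averaged 975 ± 969.9 and 486 ± 402 CPM, and its log2 fold change of -1.0 had a 95% interval from -2.56 to 0.55.

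Genes that answer mainly to type I interferon are set beside the members because several share the ISRE-type motif, which was in 9 of their 17 promoter windows. Of 20 tested, 19 had a fold change below and 1 above 0, with a median log2 fold change of -0.38. At an unadjusted p under 0.05 in edgeR, 7 were lower, against 0 of the 10 members and 416 of all 16949 genes tested. For 2 of the 20 every pMCAO library lay below every sham library, as for 91 (0.537%) of all genes tested, but 0 were called. Ifi27l2a averaged 184 ± 52.4 and 82.7 ± 24.8 CPM, with a log2 fold change of -1.16 ± 0.27 (SE; edgeR unadjusted p = 8.96e-04, adjusted p = 0.922). Oas3, which senses double-stranded RNA, averaged 26.3 ± 16.7 and 8.77 ± 2.67 CPM, with a log2 fold change of -1.58 ± 0.40 (SE; edgeR unadjusted p = 0.00192, adjusted p = 0.922), and Ifih1 was the 1 gene above 0, at 0.05. The list was chosen with earlier results of these data known, and a difference between the members and this list was not tested.

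**Figure D5:**
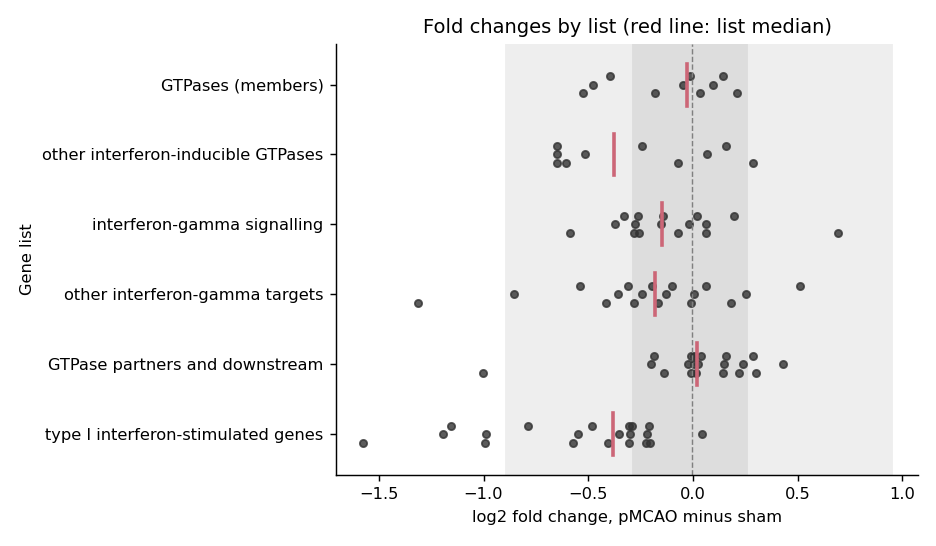
Log2 fold changes (pMCAO minus sham) of the genes of 6 lists, 1 point a gene, with the list median as a red line, the range between the quartiles of all genes tested as the darker band and the range from the 5th to the 95th percentile as the lighter band. The 10 members lie on both sides of 0 with a median of -0.03, and 19 of the 20 type I interferon-stimulated genes lie below 0. All lists were chosen with earlier results of these data known.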

How the data were processed

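RNA was sequenced from sorted lamina propria macrophages of 5 sham and 5 pMCAO libraries (paired reads of 100 bases). The authors deposited a table of raw counts for each gene together with CPM values, and these equal the counts rescaled by each library's summed count within 0.0005 CPM. The submitters' processing notes name GRCm38 (mm10), STAR, featureCounts and limma; versions and strandedness are not given in the sources used here. No listed gene had fewer than 10 counts in all but 1 library, so low genes had been removed before deposit. The authors' own columns (log2 fold change, mean log2 expression, p-value and FDR) were not used.

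Counts were filtered with filterByExpr, normalised with TMM factors and fitted without a covariate in edgeR 4.0.16 (R 4.3.3; quasi-likelihood F-test, Benjamini-Hochberg adjustment) on 16949 of 17279 genes. The script was tested on simulated data. SE is the log2 fold change divided by the square root of F. Levels per kilobase used the union of exons of GENCODE M21. Relations were tested by 2-sided permutation with 100000 resamples. No library was a repeat of another within sampling noise (lowest chi-square over degrees of freedom between any pair 49.7, from 12089 genes).

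Alternatives were DESeq2 1.42.0, limma-voom with and without quality weights (limma 3.58.1), upper-quartile scaling, no filter, more than 1 CPM in at least 5 libraries, a replicate block, and leaving out both pools, both libraries with Xist or each library in turn. The named genes were the 10 members, the genes of each other list with the smallest p in each direction, 6 genes of interferon-gamma signalling and the 5 genes most like the members. A gene that this rule gives is not reported here. Gbp2b, Iigp1 and the single lymphoid and mast cell markers were added after their values were seen. The members and lists were chosen with earlier results of these data known.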

Additional observations from a re-analysis of the deposited data

Results flagged for a closer look

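Gbp4 stood apart in 1 library. In the pMCAO group, pMCAO 1 lay above the other 4 libraries by a gap of 0.778 of the whole range of log2 CPM, against Dixon's limit of 0.71 for 5 libraries (282 CPM against 82.3 to 108 CPM).

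The sum of 8 stromal and endothelial markers was low in pMCAO 3, at 35.3 CPM against 75.1 to 86.7 CPM in the other pMCAO libraries, with a gap of 0.839 of the range on the log2 scale. Of 48 groups of 5 libraries examined in this way, 2 passed the limit, where chance alone gives about 2.4 (1 in 20).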

How the results depend on the processing

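All comparisons rest on 5 libraries a group with within-group coefficients of variation of 23.0% to 60.9%, which sets the width of the intervals. Of 358 values recomputed under alternatives, 331 were labelled the same. Another 26, all log2 fold changes of members, changed sign, and 1 count of genes called was higher. For the median of the members, the same meant a shift smaller than 0.363, the SD between libraries of the members' mean log2 CPM. That label does not regard sign, and the median lay above 0 under some alternatives. DESeq2 called 3 genes (1011 at an unadjusted p under 0.05) where edgeR called 0, none of them a member. All other alternatives called 0 genes, with 462 to 1888 genes at an unadjusted p under 0.05, and no member was called under any of the 19. Over all 19 the log2 fold change was -0.80 (without both pools) to -0.13 (without Sham 2) for Gbp2, -0.72 to -0.39 for Gbp3, -0.69 to -0.34 for Igtp and 0.0017 (without Sham 4) to 0.48 for Gbp5.

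The other 6 members changed sign under some alternative, none with a call. Without both pools the log2 fold change was -0.16 for Gbp7, -0.13 for Gbp8 and -0.052 for Gbp9, and without both libraries with Xist it was -0.047 for Gbp7 and -0.033 for Gbp8. With quality weights it was 0.14 for Gbp4 and 0.057 for Irgm1, which was also at 0.0090 with DESeq2 and 0.021 with upper-quartile scaling. Leaving out each library in turn gave -0.64 to 0.052 for Gbp4, -0.13 to 0.21 for Gbp7, -0.16 to 0.33 for Gbp8, -0.015 to 0.30 for Gbp9, -0.27 to 0.14 for Irgm1 and -0.32 to 0.10 for Irgm2, and -0.29 to 0.08 for the median of the members. The cause was not tested.

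The labels do not say whether same-numbered replicates are paired. After subtraction of the group means their correlation ranged from -0.01 to 0.37, with a mean of 0.20. Of the 10 libraries, 5 correlated best with their own number, each having 5 candidates in the other group. Whether same-numbered libraries share a day or batch was not tested. With the replicate number as a block, edgeR called 0 genes and 0 members, 1303 genes had an unadjusted p under 0.05, and the median of the members was -0.09. Gbp3 was then the 1 member with an unadjusted p under 0.05 (edgeR unadjusted p = 0.0331, adjusted p = 0.640).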
